A study of Ambystoma mexicanum with 61 samples.

Results

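The collagen gene models of the axolotl (Ambystoma mexicanum) were followed through bulk RNA-seq of its adult tissues. They were chosen by name alone, as every gene model whose symbol starts with COL and a digit and which held at least 50 counts summed over the 61 libraries. The rule gave 30 of the 23251 gene models counted. Of these, 29 were collagen models with 28 symbols, since Col11a1 was split into a long and a short model, and the other was Col4a3bp, a ceramide transfer protein whose symbol only begins like that of a collagen. Another 3 models with a collagen symbol fell under the minimum, namely Col28a1 with 46 counts, Col5a1 with 20 and a second model of Col26a1 with 49. Other collagens, such as the chains of type I and type II, were not analysed here.

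All axolotls were adults of the d/d strain aged 1 year. Neotenic animals, which keep the larval body with gills and fins, gave 34 libraries, 2 from each of 17 tissues, namely bladder, brain, cloacal chamber, eye, fore limb, gill, gonad, heart, hind limb, intestine, kidney, liver, lung, skin, spleen, stomach and tail. Animals in which metamorphosis had been induced with the thyroid hormone thyroxine gave 27 libraries from 15 tissues, all of those above without gill and gonad. Brain, fore limb and heart had 1 metamorphosed library and the other 12 tissues had 2. No untreated animals that had metamorphosed by themselves were part of the design, so that hormone treatment and metamorphosis cannot be told apart. According to the methods 2 animals were used in each state, and tissues with the same state and replicate number may therefore come from the same animal.

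Collagens are secreted or membrane-bound proteins in which chains wind into a triple helix, and they make up most of the extracellular matrix of connective tissue. Fibrillar collagens form the banded fibrils that carry load, type VI forms beaded filaments around cells, and type IV forms the meshwork of basement membranes. The FACIT collagens (fibril-associated collagens with interrupted triple helices) decorate fibrils, and transmembrane collagens such as type XVII fix epithelial cells to the matrix beneath them. In amphibians, metamorphosis rebuilds skin, limbs and gut for life on land.

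Between 69278 and 27389476 fragments were assigned to genes in a library. Levels below are CPM, counts divided by the library total and its trimmed mean of M values (TMM) factor and brought to a common scale, and levels of different models are compared only per kilobase of model. Metamorphosed skin 1 was the shallowest library, and a model with 0 counts there could be present at up to 24.2 CPM, the value of 3 counts. In 2 neotenic libraries the defining genes went against the label. The library labelled neotenic stomach 2 held 7.12 CPM of the stomach gland list (Gkn1 and Aqp4) and 4944 CPM of the skeletal muscle list, and the library labelled neotenic tail 2 held 18494 and 22.0 CPM. In the collagen models, too, the library labelled neotenic stomach 2 was nearest to neotenic tail 1 (r of 0.985 across 29 models, log2(CPM + 1)) and the library labelled neotenic tail 2 was nearest to neotenic stomach 1 (r of 0.980). Values of these tissues are given by label, and counts of calls that change without these 2 libraries are given with the effect of the processing. The neotenic gonad libraries differed as well, with collagen shares of 1.82% and 0.0607% of all counts, and the labels do not say of which kind each gonad was.

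By tissue mean, transcripts of the 29 collagen models were most abundant in neotenic bladder, heart and lung and scarcest in spleen. The collagen share given here and below is that of these models. The chains of type I and type II are not among them, so that the order of tissues over all collagens is not known here. The 29 collagen models took 1.63% and 1.83% of all counts in the 2 bladder libraries, 1.08% and 1.19% in heart, and 1.05% and 1.14% in lung. Bladder lay above heart and lung with no overlap, whereas heart and lung overlapped. At the lower end the shares were 0.0861% and 0.12% in brain, 0.071% and 0.115% in liver, and 0.00677% and 0.00607% in spleen. Brain and liver overlapped, and spleen lay below every other tissue. Bulk libraries cannot tell fewer collagen-producing cells from less collagen RNA in each of them.

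**Figure D1:**
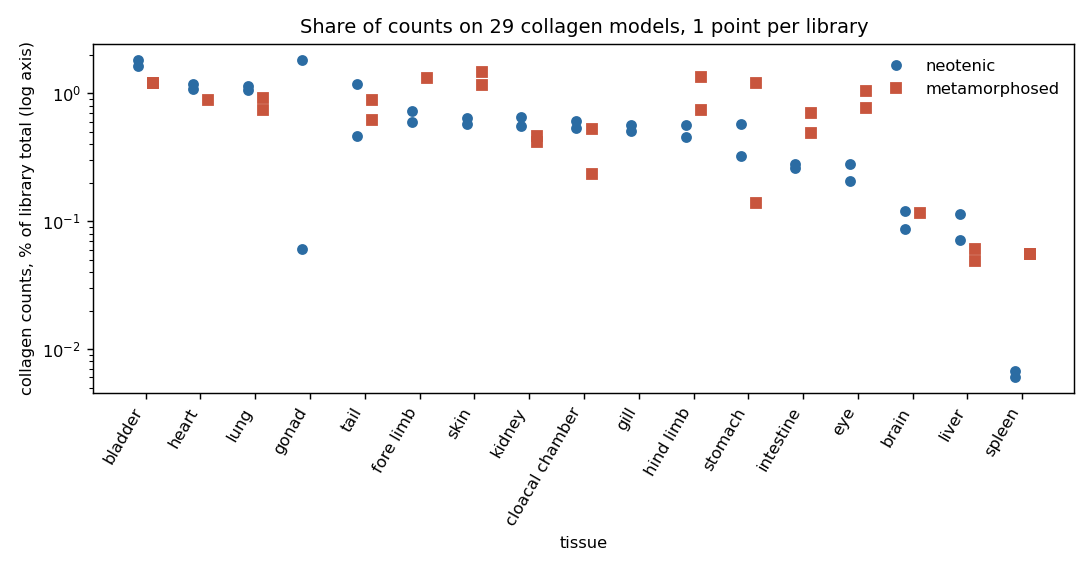
Share of all counts that fell on the 29 collagen models, in percent on a log axis, with 1 point per library and tissues ordered by their neotenic mean. Neotenic bladder holds 1.63% and 1.83%, neotenic spleen 0.00677% and 0.00607%, and the metamorphosed libraries lie above both neotenic ones in spleen, eye, hind limb, intestine and skin.

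Per kilobase, Col3a1, a fibrillar collagen of elastic connective tissue, held the largest part among the 29 collagen models in most libraries. The chains of type I and type II are not among these models, so that its rank among all collagens is not known here. Col3a1 made up between 18.8% and 79.4% of the summed level of the 29 models, with a median of 52.9% over the 61 libraries. The models of the fibrillar class together made up a median of 61.3%, and the class of beaded filament and related models (Col6a2 and Col6a3, with Col26a1 as the related model) a median of 19.8%. Medians of the remaining classes were 5.87% for the FACIT models, 2.21% for type IV, 2.15% for Col18a1, 1.51% for the transmembrane models, 0.347% for types VIII and X, and 0.0885% for Col7a1. Shares of small classes were high in particular libraries, up to 34.9% for Col18a1 and 22.6% for the transmembrane models.

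In the neotenic animal, pairs of member and tissue passed the enrichment test somewhat more often than pairs of all genes and tissues. Enrichment was tested in the 34 neotenic libraries as each tissue against the mean of the other 16, by edgeR's quasi-likelihood test with Benjamini-Hochberg adjustment over 18982 genes, and the call needed an adjusted p under 0.05 together with a level at least 2 log2 units above that mean. All members but Col19a1 passed the filter on low counts for this test. Of the 493 pairs of model and tissue, 54 were enriched (11%), beside 7.26% of all gene and tissue pairs, and 62 were enriched without the libraries labelled neotenic stomach 2 and neotenic tail 2. These calls involved 22 models, and the others were Col5a2, Col16a1, Col20a1, Col27a1, Col8a2, Col13a1 and Col4a3bp, besides the untested Col19a1. Col17a1 and Col11a1 were enriched in 6 tissues each. The share of all genes enriched in at least 1 tissue was not computed, so that the 22 models cannot be set against it.

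**Figure D2:**
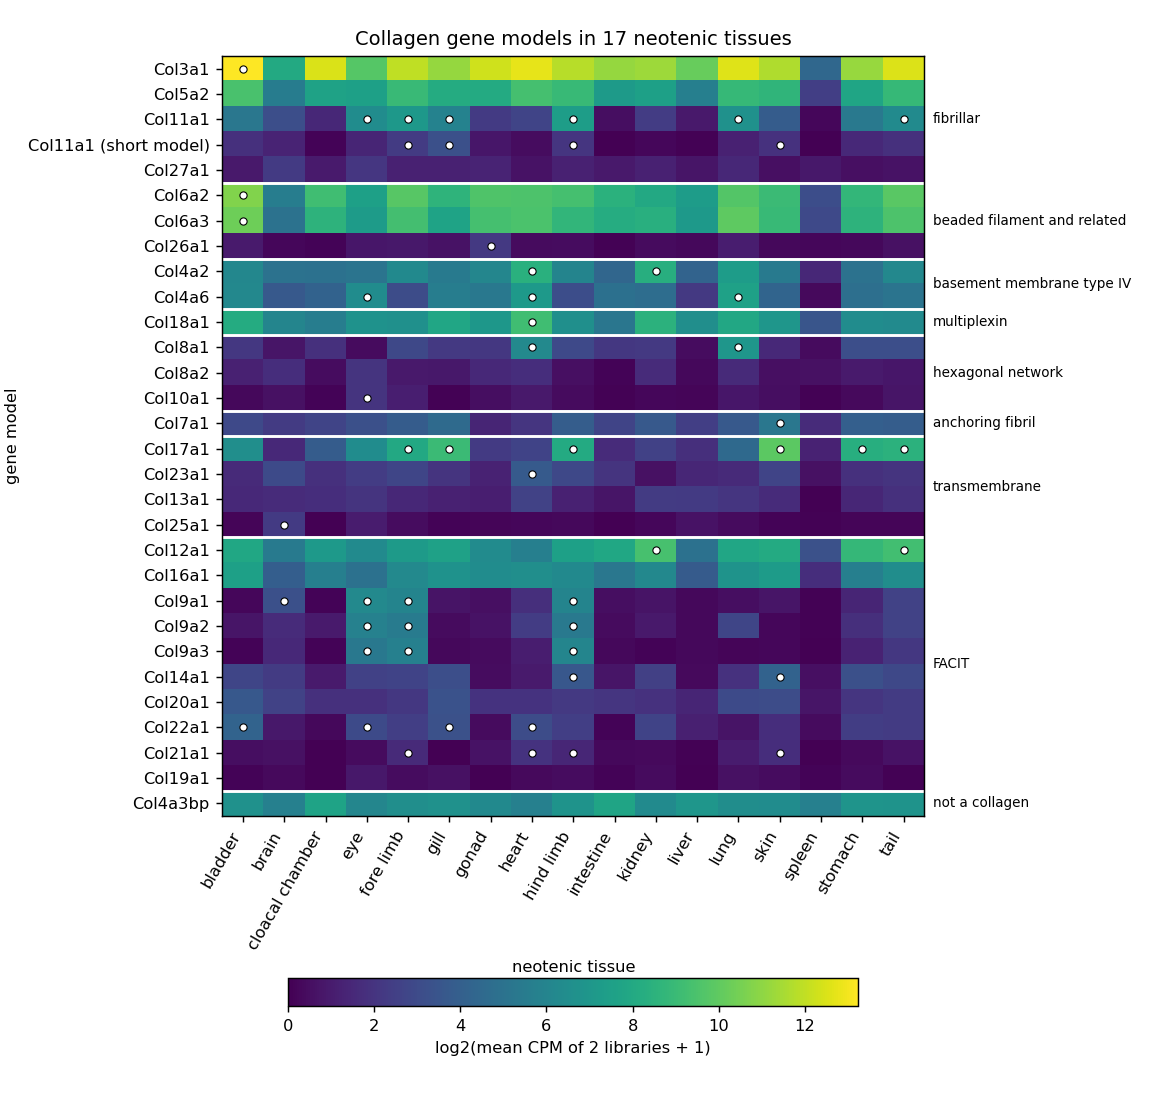
Mean level of the 30 gene models in 17 neotenic tissues, as log2 of the mean CPM of 2 libraries plus 1, with models grouped by structural class. White dots mark the 54 enriched pairs, such as the type IX models in eye, fore limb and hind limb, Col17a1 in skin and gill, and Col8a1 in heart and lung.

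The type IX chains, which coat the fibrils of cartilage and of the vitreous body of the eye, had large enrichments, and those of Col9a3 and Col9a1 in eye and both limbs lay above those of every other member. Col9a1 was at 116 and 31.5 CPM in neotenic eye, 82.0 and 39.7 in fore limb and 78.4 and 47.0 in hind limb. It was at 12.2 and 4.30 CPM in brain and at 10.1 and 0.194 CPM in tail, where the second library is the one at odds with its label. Eye, fore limb and hind limb overlapped with each other, all lay above the remaining tissues, and the median tissue stood at 0.645 CPM.

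Enrichment of Col9a1 was 6.11 ± 0.48 on the log2 scale in eye (SE, adjusted p of 1.65e-09), 5.86 ± 0.48 in fore limb (7.77e-08) and 5.79 ± 0.48 in hind limb (1.1e-07). The enrichment of Col9a3 was 6.13, 6.70 and 6.85 in the same tissues, and that of Col9a2 was 5.38, 5.06 and 4.81. Col11a1, a fibrillar chain that sets the thickness of cartilage fibrils, was enriched in the same tissues (3.09, 3.83 and 4.01) and also in lung, tail and gill. Its level in lung, 111 and 96.1 CPM, was set beside cartilage marker sums of 178 and 124 CPM (Acan, Matn1, Hapln1, Chad, Cnmd and Sox9), against 3.40 to 7.80 CPM in neotenic liver and spleen. The part of cartilage in the lung value was not tested.

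Both limbs shared a set of models. Fore limb had 7 enriched members, beside 5.60% of all genes, and hind limb had 8, beside 5.03%. Of these, 7 were the same in both limbs, namely the 3 type IX chains, both Col11a1 models, Col17a1 and Col21a1, a low-level FACIT of 1.51 to 2.42 CPM in the 4 libraries. Hind limb added Col14a1, a FACIT of dense connective tissue. Eye also had 7 enriched members, beside 14% of all genes, and these included Col10a1, the collagen of hypertrophic cartilage, at 5.20 and 0.685 CPM (3.49 ± 0.67, adjusted p of 0.000385). Col4a6, a basement membrane chain, stood at 135 and 38.8 CPM in eye and Col22a1, which is known from tissue junctions, at 4.18 and 9.82 CPM. In brain, enriched beside 16.1% of all genes, the 2 members were Col9a1 and Col25a1, a transmembrane collagen of neurons, at 2.40 and 5.12 CPM (4.64 ± 0.76, adjusted p of 6.31e-05).

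Col17a1, the hemidesmosome collagen of basal epidermal cells, followed the surface epithelia. It was at 1074 and 834 CPM in neotenic skin, 535 and 503 in gill, 214 and 341 in hind limb and 240 and 276 in fore limb. Intestine held 1.99 and 2.18 CPM and spleen 1.11 and 1.64 CPM. Skin lay above gill with no overlap, and gill above the limbs. Enrichment was 5.25 ± 0.59 in skin (adjusted p of 3.07e-06) and 4.43 ± 0.62 in gill (2.17e-05).

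The same model was called in stomach, the only enriched member there beside 3.91% of all genes, but its stomach libraries held 19.8 and 614 CPM, and its tail libraries 710 and 5.63 CPM. The high stomach value is that of the library labelled neotenic stomach 2. Col7a1, which forms the anchoring fibrils beneath the epidermis, was enriched in skin alone, at 45.5 and 28.3 CPM (2.33 ± 0.53, adjusted p of 0.00637). Skin had 5 enriched members beside 4.95% of all genes, the others being Col14a1, Col21a1 and the short Col11a1 model. Gill had 4 beside 6.69%, with the short Col11a1 model highest there at 10.4 and 6.13 CPM.

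Of the basement membrane and vessel-wall collagens, Col8a1 was high in lung and heart, and Col4a2 and Col18a1 were highest in heart and kidney. Col8a1, a network collagen of the vascular subendothelium, was at 128 and 118 CPM in neotenic lung and 44.9 and 105 in heart, against 13.7 CPM or less in every other neotenic library. Its enrichment was 5.48 ± 0.43 in lung (adjusted p of 5.93e-09) and 4.64 ± 0.45 in heart (9.4e-08). Lung lay above heart with no overlap.

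Col4a2, a chain of the ubiquitous type IV network, stood at 311 and 372 CPM in heart and 310 and 312 in kidney, which did not differ beyond their spread, followed by lung with 123 and 196. Col18a1, the basement membrane collagen that yields endostatin, was at 390 and 772 CPM in heart and 360 and 373 in kidney, and was enriched in heart only (2.50 ± 0.35, adjusted p of 2.13e-05). Bladder followed for Col18a1 with a mean of 283 CPM. Heart had 7 enriched members beside 6.60% of all genes, among them Col23a1, a transmembrane collagen, at 12.4 and 12.6 CPM. Lung had 3 beside 7.06%, and kidney had 2 beside 7.16%, Col4a2 and Col12a1. Endothelial marker sums (Pecam1, Cdh5, Kdr, Tek and Egfl7) were 559 and 534 CPM in heart, 221 and 425 in lung, 145 and 136 in kidney and 13.2 and 13.1 in spleen, and their part in these levels was not tested.

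The abundant interstitial collagens peaked in bladder. Col3a1 was at 8330 and 11101 CPM there, against 6909 and 7006 in heart and 6191 and 6332 in lung, and at 16.2 and 24.9 CPM in spleen. Col6a2 and Col6a3, chains of the beaded filaments, stood at 1646 and 1806 CPM and at 1314 and 1292 CPM in bladder. Bladder was above every other tissue mean for each of these models. Their enrichment in bladder was 2.28 ± 0.58 for Col3a1 (adjusted p of 0.017), 2.42 ± 0.50 for Col6a2 (0.00304) and 2.31 ± 0.44 for Col6a3 (0.00159). Bladder had 4 enriched members beside 4.61% of all genes, the other being Col22a1 at 23.8 and 11.9 CPM.

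Col12a1, a FACIT of tendon and dermis, was enriched in kidney at 551 and 799 CPM and in tail at 725 and 476 CPM. Tail had 3 enriched members beside 4.01% of all genes, the others being Col17a1 and Col11a1. Col26a1, described from mouse testis and ovary, was the only enriched member of gonad, beside 11% of all genes, at 5.69 and 1.35 CPM. No member was enriched in cloacal chamber (5.16% of all genes), intestine (6.58%), liver (8.36%) or spleen (6.49%).

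Col4a3bp, the member that is no collagen, varied little between tissues. Its neotenic tissue means ranged from 52.9 CPM in heart to 215 CPM in intestine, and it was enriched nowhere. The corresponding range of Col3a1 ran from 20.5 to 9716 CPM.

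Across the 61 libraries, the profiles of some models of shared structures were close, and those of others were not. The Pearson correlation of log2(CPM + 1) was 0.976 between Col6a2 and Col6a3, 0.959 between Col3a1 and Col6a3, and 0.947 between Col5a2 and Col6a2. It was 0.97 between Col9a1 and Col9a3 and 0.913 between Col9a1 and Col9a2. Col7a1 was nearest to Col17a1 (0.741), whereas Col17a1 was itself nearest to Col11a1 (0.799). Col4a2 and Col18a1 were nearest to each other (0.824). The type IV chains Col4a2 and Col4a6 reached 0.582, and the type VIII chains Col8a1 and Col8a2 only 0.186. Col8a2 was low, with the median neotenic tissue at 0.854 CPM, so that its correlation is imprecise. The median over the 406 pairs of collagen models was 0.333. These are descriptions over libraries that share animals and tissues. Col3a1 and Col5a2 lie on opposite strands of 1 scaffold of the AmexG_v3.0.0 assembly, AMEXG_0030002196, at 5379035 to 5587968 and 4960111 to 5392746, so that their spans overlap, but they share no exon base. Col9a3 shares 184 exon bases with Tcfl5 (counting used no strand), and its reads there cannot be assigned.

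Averaged over tissues, the collagen models that passed the test between states were higher after metamorphosis. The mean of the 12 tissues with 2 libraries a state was tested over all 61 libraries and 20216 genes by edgeR's quasi-likelihood test with Benjamini-Hochberg adjustment, and all 30 members passed the filter. It called 10 members, all higher in metamorphosed animals, beside 10.9% of all genes called higher. With all libraries no member was called lower, beside 7.02% of all genes. An unadjusted p under 0.05 was found for 14 members (30.2% of all genes), 13 higher and 1 lower (Col7a1). DESeq2 called 14 higher (13.7% of all genes) and 0 lower (8.74%). The median log2 fold change was 0.51 over the members, both as fitted and with groups at 0 counts set to a bound of 3 counts, and 0.02 over all genes.

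**Figure D3:**
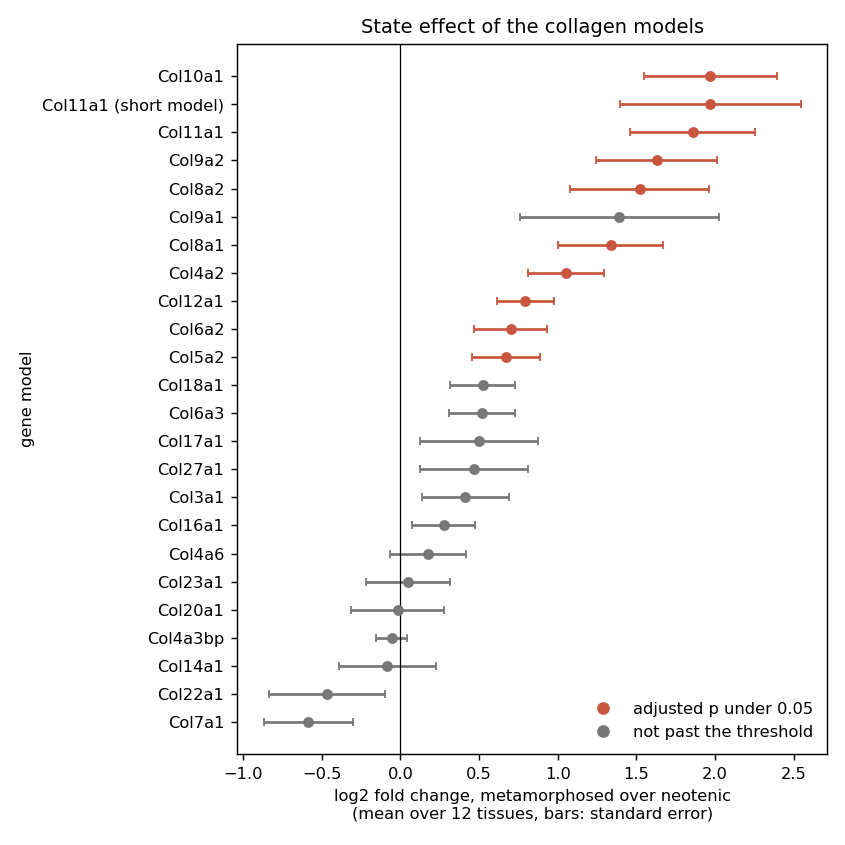
Mean log2 fold change of metamorphosed over neotenic libraries across 12 tissues, with bars of 1 standard error, for the 24 members with a standard error under 1. Red points mark the 10 members with an adjusted p under 0.05, all above 0, from Col5a2 at 0.67 to the short Col11a1 model and Col10a1 at 1.97.

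The called members came from several classes. Among network collagens they were Col10a1 (1.97 ± 0.42, SE, adjusted p of 0.00123), Col8a2 (1.52 ± 0.44, 0.0143) and Col8a1 (1.34 ± 0.33, 0.00464). Among cartilage-fibril collagens they were Col11a1 (1.86 ± 0.40, 0.00112), its short model (1.97 ± 0.57, 0.0151) and Col9a2 (1.63 ± 0.38, 0.00282). Col4a2 of basement membranes was higher by 1.05 ± 0.24 (0.00223) and the FACIT Col12a1 by 0.79 ± 0.18 (0.0021). Of the interstitial collagens, Col6a2 (0.70 ± 0.23, 0.0311) and Col5a2 (0.67 ± 0.22, 0.0267) passed, whereas Col6a3 (0.52 ± 0.21, 0.0795) and Col3a1 (0.41 ± 0.28, 0.348) did not. Col18a1 of basement membranes (0.52 ± 0.21, 0.0745) did not pass either. Col4a3bp was at -0.06 ± 0.10 (0.879). For 6 models (Col9a3, Col13a1, Col26a1, Col21a1, Col25a1 and Col19a1), both libraries of at least 1 group were at 0 counts and the standard error was 3.46 or more, so that no mean effect is given. The short Col11a1 model was at 0 counts in 2 groups, and its fitted value depends on the prior count there.

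Of these calls, those of Col10a1 and Col12a1 depended least on particular libraries. Col12a1 was higher in 10 of 12 tissues, and both metamorphosed libraries lay above both neotenic ones in 7 tissues and below them in 0. In tail it went from 725 and 476 CPM to 1622 and 1770 CPM, in spleen from 13.0 and 4.51 to 70.5 and 42.9 CPM, and in eye from 142 and 19.4 to 276 and 705 CPM. In kidney the libraries overlapped, at 551 and 799 CPM against 448 and 886 CPM.

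Col10a1 was higher in 11 of 12 tissues, with both metamorphosed libraries above both neotenic ones in 6 and below them in 0. It stood at 0.184 and 0.464 CPM in neotenic hind limb against 2.46 and 7.36 CPM, at 0.935 and 0.389 CPM in neotenic tail against 6.25 and 4.59 CPM, and at 5.20 and 0.685 CPM in neotenic eye against 18.7 and 15.4 CPM. In 6 of its 24 groups no more than 3 counts were found over both libraries, so that its mean is imprecise. When the 5 metamorphosed libraries described next were left out, Col10a1 (1.69, adjusted p of 0.0156) and Col12a1 (0.78, 0.0117) were the only members called. Calls over all genes also became fewer in that fit, and most of them were lower after metamorphosis. The calls of the members were lost without the metamorphosed libraries of replicate 2, where Col10a1 was at 1.02 and Col12a1 at 0.67. Calls over all genes fell there as well, and most of those left were lower after metamorphosis. Without the metamorphosed libraries of replicate 1, calls over all genes rose, and Col18a1 (0.67) was higher while Col7a1 (-1.31) and Col22a1 (-1.18) were lower. Calls of the members and of all genes both became fewer without the neotenic libraries of either replicate, and the call of Col12a1 was lost without those of replicate 2. Each of these replicate fits left 1 library in a group. Tissues of 1 state may share an animal, and an effect of an animal cannot be told apart from a mean effect of state over tissues.

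The collagen profiles of 5 metamorphosed libraries from different tissues were nearly the same. These were bladder 2, fore limb 1, hind limb 2, intestine 2 and skin 2, whose 10 pairwise correlations across the 29 collagen models lay between 0.982 and 0.997, and each was nearest to another of the 5. Replicate pairs of the same tissue had a median of 0.973 (range 0.845 to 0.993, 29 pairs). The low end holds pairs with 1 of the 5 libraries, such as metamorphosed intestine (0.845) and skin (0.858). It also holds the neotenic stomach (0.878) and tail (0.871) pairs. Some other libraries of different tissues were as close, such as metamorphosed cloacal chamber 1 and intestine 1 (0.993) and neotenic fore limb 2 and hind limb 2 (0.992). Col27a1, a fibrillar collagen of cartilage with 0.377 to 1.48 CPM in the neotenic libraries of skin, limbs, bladder and intestine, was at 6.11 to 18.3 CPM in the 5 libraries and at most at 5.02 CPM in the other 56. The short Col11a1 model was at 16.1 to 24.3 CPM in the 5 and at most at 10.4 CPM in the others. Both models were chosen for this description after their values were seen.

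Sums of further cell type markers are given for these libraries. Bladder 2, fore limb 1, hind limb 2 and skin 2 had been picked out for their intestinal genes, so that high intestinal sums there follow from that choice. Intestine 2 was added to them after seeing the data. The sum of 4 intestinal epithelium markers (Vil1, Apoa4, Cdx1 and Cdx2) was 197 to 401 CPM in bladder 2, fore limb 1, hind limb 2 and skin 2, against a median of 29 CPM in the 56 other libraries. In intestine 2, where these are markers of the labelled tissue, it was 3492 CPM, against 10010 to 20637 CPM in the other 3 intestine libraries. In the 5 libraries the cartilage sum was 118 to 229 CPM, against a median of 30.2 CPM and a highest value of 300 CPM in the others. In fore limb 1 and hind limb 2 it was 224 and 229 CPM, against 133 to 212 CPM in the neotenic limb libraries. The epithelial sum was 1451 to 1621 CPM, against a median of 709 CPM and a highest value of 2644 CPM. The fibroblast sum was 737 to 1355 CPM, against a median of 461 CPM and a highest value of 2422 CPM. Metamorphosed fore limb 1 and hind limb 2 held 2427 and 5707 CPM of the skeletal muscle list, against 71677 CPM in metamorphosed hind limb 1 and 15448 to 40530 CPM in the 4 neotenic limb libraries. The part of these in the collagen values was not tested. The mean effect of Col11a1 was 0.79 (adjusted p of 0.13) without the 5 libraries, that of Col9a2 was 0.34 (1), that of Col8a1 was 0.00 (1) and that of Col4a2 was 0.56 (0.129).

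**Figure D4:**
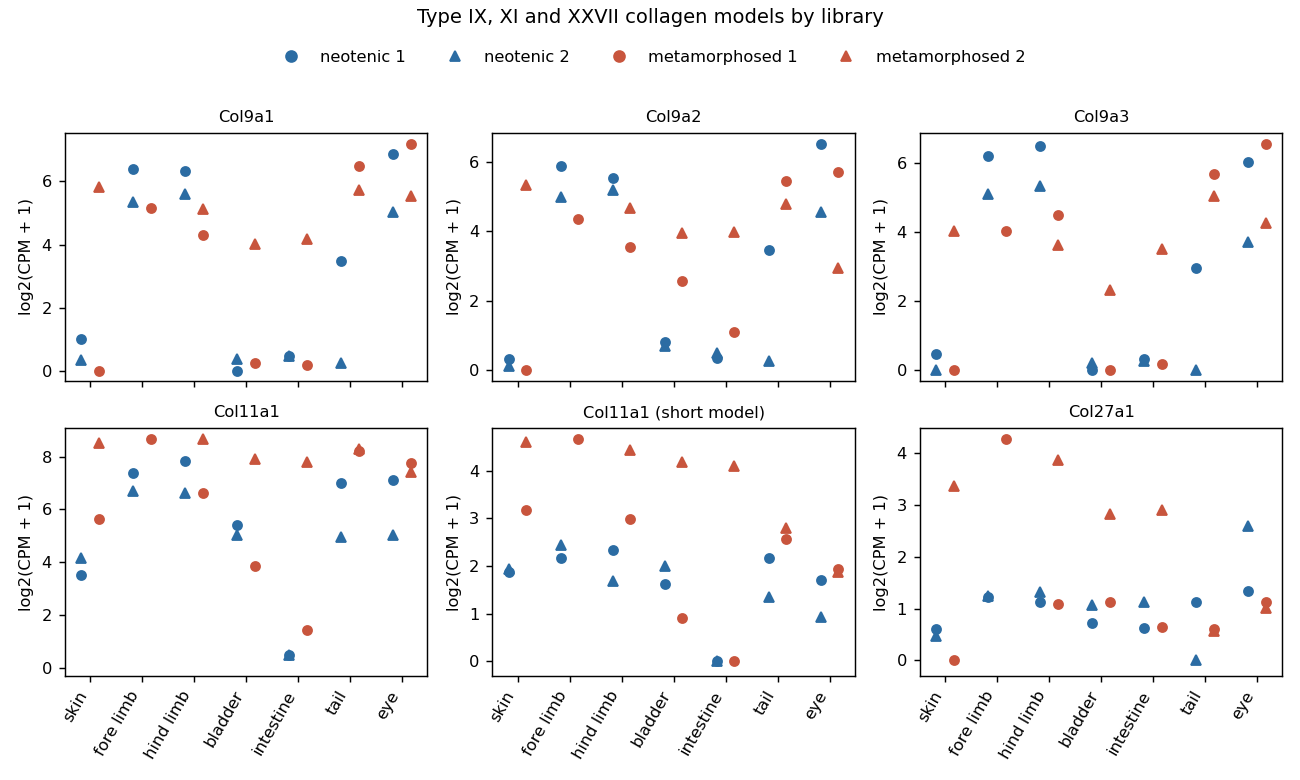
Levels of the type IX, XI and XXVII models in 7 tissues as log2(CPM + 1), with circles for replicate 1, triangles for replicate 2, blue for neotenic and red for metamorphosed libraries (1 metamorphosed library for fore limb). Metamorphosed skin 2, hind limb 2, bladder 2, intestine 2 and fore limb 1 hold 6.11 to 18.3 CPM of Col27a1, and the type IX models of metamorphosed skin lie at 0 in replicate 1 and between 15.5 and 55.7 CPM in replicate 2.

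In skin, type IX collagen stood out in a single metamorphosed library. Col9a1 was at 1.03 and 0.283 CPM in neotenic skin and at 0 and 55.7 CPM in metamorphosed skin, and Col9a2 was at 0.258 and 0.0942 CPM against 0 and 39.4 CPM. Col27a1 went from 0.517 and 0.377 CPM to 0 and 9.35 CPM. In each case metamorphosed skin 2 lay above both neotenic libraries. Metamorphosed skin 1, with its 69278 counts, had 0 counts of all 3 models, which cannot be placed above or below the neotenic levels at that depth.

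edgeR's quasi-likelihood test called 3 members higher in metamorphosed skin, beside 2.21% of all genes, and 1 lower, beside 2.68%, together 4 members where 4.89% of all genes were called. The log2 fold change was 7.03 ± 1.49 for Col9a2 (SE, adjusted p of 0.0117), 5.70 ± 1.53 for Col9a1 (0.0331) and 3.95 ± 1.20 for Col27a1 (0.0488), while the median over all genes was -0.39. The cartilage marker sum was 28.3 and 38.3 CPM in neotenic skin and 56.4 and 229 CPM in metamorphosed skin, and the intestinal sum 12.5 and 3.96 against 32.2 and 372 CPM. Both sums of metamorphosed skin 1 rest on few counts, since 3 counts there are worth 24.2 CPM. Without metamorphosed skin 2, the member calls in skin were lost, and most calls over all genes were lost as well. The fitted values of these 3 models turned negative there, since the remaining library had 0 counts.

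Col23a1 was the model called lower in skin. It was at 5.49 and 5.65 CPM (85 and 60 counts) in neotenic skin and at 0 and 0.267 CPM (0 and 2 counts) in metamorphosed skin. The fall was by 4.35 ± 1.27 on the log2 scale (adjusted p of 0.0432), and the ratio of summed counts was 21.1, with a 95% interval for counting error of 5.75 to 176. Metamorphosed skin 2 lay below both neotenic libraries, whereas the 0 counts of metamorphosed skin 1 cannot be placed, since 3 counts there are worth 24.2 CPM. Col17a1 was at 1074 and 834 CPM against 838 and 190 CPM, and Col7a1 was at 45.5 and 28.3 against 16.1 and 8.68 CPM, and neither passed the test. The 16.1 CPM of Col7a1 in metamorphosed skin 1 lie under the 24.2 CPM of 3 counts and cannot be placed either. The call of Col23a1 was lost when metamorphosed skin 1 alone was left out. It was kept when all metamorphosed libraries of replicate 1 were left out, where calls over all genes in skin rose. The calls of all 4 models were lost when either neotenic skin library was left out, where most calls over all genes were lost as well.

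In spleen, the levels of interstitial collagens lay higher in both metamorphosed libraries, but the only member that passed the test was the basement membrane collagen Col18a1. The collagen share was 0.00677% and 0.00607% in neotenic spleen and 0.0555% and 0.0553% in metamorphosed spleen, an 8.63-fold difference of the means. Col3a1 was at 16.2 and 24.9 CPM against 143 and 164 CPM, and Col6a2 at 7.80 and 7.52 against 77.1 and 33.6 CPM. Col5a2 stood at 4.09 and 5.06 against 25.8 and 15.0 CPM. For 14 of 30 members both metamorphosed libraries lay above both neotenic ones and for 0 below, beside 30.5% of all genes above and 15.4% below.

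Col18a1 was the only member called in spleen, at 15.6 and 4.51 against 20.6 and 166 CPM (3.22 ± 0.78, SE, adjusted p of 0.048), where 0.287% of all genes were called higher and 0.490% in either direction. Metamorphosed spleen 2 alone lay far above the rest, and without the metamorphosed libraries of replicate 2 the value was 1.02 (adjusted p of 0.868). Col12a1 (2.70 ± 0.67, 0.0546) and Col6a2 (2.85 ± 0.86, 0.148) did not pass, and both were called by DESeq2, which called 3 members beside 2.00% of all genes. The median log2 fold change was 1.38 over the members as fitted and 1.77 over the 21 members above 3 counts in at least 1 state, with groups at 0 counts set to a bound, against 0.17 over all genes. The fibroblast marker sum (Pdgfra, Pdgfrb, Twist1, Prrx1, Thy1, Fbln1 and Lum) was 17.1 and 14.4 CPM in neotenic and 56 and 62.8 CPM in metamorphosed spleen, with 2 and 3 of its 7 genes at 0 against 1 and 1. Sums of other lists were higher too, namely smooth muscle (193 and 239 against 533 and 590 CPM), endothelial (13.2 and 13.1 against 40.1 and 84.9), epithelial (3.34 and 4.92 against 34.3 and 29.2), intestinal epithelium (4.65 and 5.06 against 58.8 and 50.6), skeletal muscle (20.1 and 21.6 against 76.2 and 143), stomach gland (2.23 and 4.51 against 21.4 and 20.1) and blood and immune (3175 and 3455 against 6328 and 6796). The bone sum (Runx2 and Alpl) was lower, at 386 and 352 against 243 and 182 CPM, and the cartilage sum overlapped, at 7.80 and 4.10 against 5.96 and 7.70 CPM. Of the endothelial values, the highest was that of metamorphosed spleen 2, which also held most Col18a1. The fibroblast list holds Lum, a fibril-associated proteoglycan that can make up most of its sum. In skin, Lum averaged 619 CPM in neotenic libraries, beside fibroblast sums of 551 and 902 CPM. In metamorphosed skin it averaged 1147 CPM, beside sums of 1144 and 1351 CPM. The part of Lum in the spleen sums, and the part of all these lists in the collagen levels, was not tested.

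**Figure D5:**
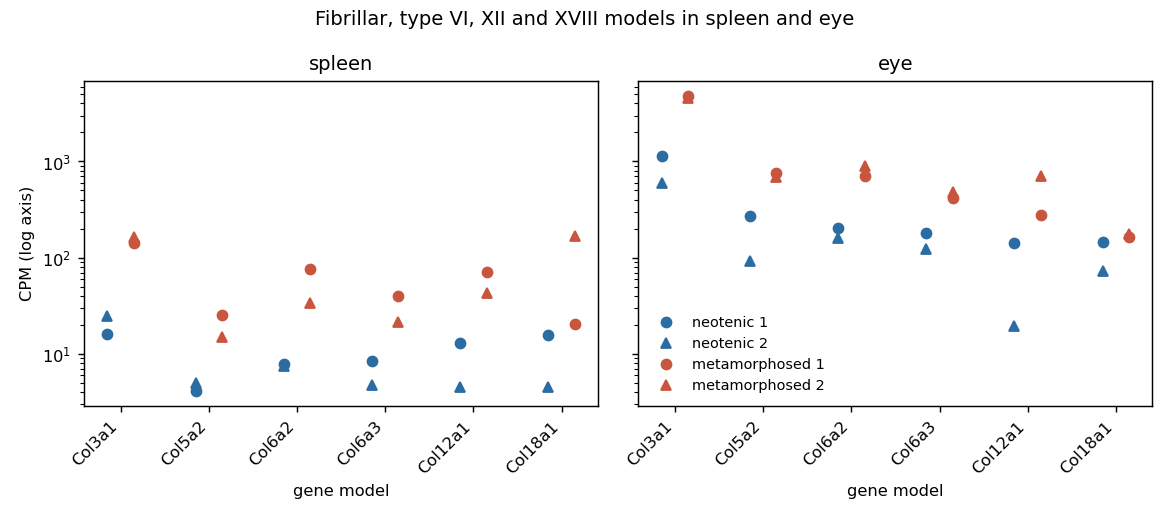
Levels of 6 interstitial and basement membrane models in spleen and eye in CPM on a log axis, with blue for neotenic and red for metamorphosed libraries. In both tissues the metamorphosed libraries lie above the neotenic ones for each of the 6 models, as for Col3a1 with 16.2 and 24.9 against 143 and 164 CPM in spleen.

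In eye, too, the levels of interstitial collagens lay higher in both metamorphosed libraries, and no member passed the test. The share was 0.282% and 0.206% against 1.04% and 0.771%, a 3.70-fold difference of the means. Col3a1 was at 1144 and 594 CPM against 4804 and 4573 CPM, and Col8a2, the chain of the corneal Descemet membrane, at 4.94 and 1.14 against 29.4 and 10.4 CPM. Both metamorphosed libraries lay above both neotenic ones for 18 members and below them for 3, beside 18.2% of all genes above and 20.7% below. By edgeR's quasi-likelihood test 0 members were called, beside 0% of all genes. At an unadjusted p under 0.05 there were 9 members, all higher, beside 6.43% of all genes, and DESeq2 called 1, Col12a1, beside 0.559%. The fibroblast sum was 548 and 163 against 1393 and 1346 CPM and the skeletal muscle sum 666 and 1899 against 10447 and 12788 CPM. The smooth muscle sum was 120 and 193 against 1143 and 958 CPM and the blood and immune sum 107 and 93.4 against 301 and 715 CPM, and the part of these lists was not tested.

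In hind limb and tail, the type IX chains lay in opposite directions while Col11a1 and Col10a1 lay higher in both by fitted value, and none passed the test. Col9a1 was at 78.4 and 47.0 CPM in neotenic hind limb against 18.8 and 33.7 CPM in metamorphosed hind limb, and Col9a3 at 88.9 and 39.4 against 21.5 and 11.4 CPM, whereas Col10a1 was higher in both metamorphosed libraries. In hind limb 0 members were called by edgeR (beside 0.599% of all genes, 4 with an unadjusted p under 0.05 beside 18.3%, and 1 by DESeq2, Col10a1, beside 6.81%). Col10a1 (3.88 ± 1.22, adjusted p of 0.0852) was also called when metamorphosed hind limb 1 was left out, where calls over all genes rose as well. That fit rested on metamorphosed hind limb 2 alone, which is among the 5 libraries with a shared collagen profile. In tail, Col9a1 was at 10.1 and 0.194 against 88.3 and 51.4 CPM and Col16a1 at 125 and 53.0 against 232 and 269 CPM. No member was called in tail either, beside 0.717% of all genes, with 7 at an unadjusted p under 0.05 (11.7% of all genes) and 0 by DESeq2 (3.11%). The library labelled neotenic tail 2 is 1 of the 2 neotenic libraries there, and without it the count in tail was still 0.

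In intestine, the cartilage-type collagens were high in 1 library. Col11a1 was at 0.398 and 0.397 CPM in neotenic intestine and at 1.71 and 222 CPM in metamorphosed intestine, and Col9a1 at 0.398 and 0.397 against 0.142 and 17 CPM. Metamorphosed intestine 2 is among the 5 libraries with a shared profile. Outside these models, Col3a1 was at 2157 and 2411 against 3152 and 4716 CPM and Col26a1 at 0.133 and 0 against 4.12 and 1.98 CPM, with no overlap. No member was called in intestine beside 0% of all genes, while 13 had an unadjusted p under 0.05 (8.13% of all genes) and DESeq2 called 4 (1.90%).

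In lung and kidney no member passed the test between states. In lung, Col8a1 was at 128 and 118 CPM against 77.6 and 47.5 CPM, Col4a6 at 191 and 185 against 108 and 71.3 CPM and Col3a1 at 6191 and 6332 against 4185 and 3216 CPM. These levels were lower in both metamorphosed libraries and did not pass the test. In lung both metamorphosed libraries lay below both neotenic ones for 11 of 30 members and above them for 1, beside 21.9% and 14.6% of all genes. In kidney they lay below for 9 and above for 4, beside 22.7% and 16.3%. The collagen share was lower in both metamorphosed libraries in lung, kidney, liver, bladder and cloacal chamber, higher in both in spleen, eye, hind limb, intestine and skin, and overlapping in stomach and tail. In lung and in kidney 0 members were called, beside 0% of all genes in each, with 0 at an unadjusted p under 0.05 (3.08% of all genes in lung and 3.09% in kidney) and 0 by DESeq2 (0.124% and 0.139%). In bladder 0 were called (beside 0.00495%), with 4 at an unadjusted p under 0.05 (8.06%) and 1 by DESeq2 (1.6%). In cloacal chamber 0 were called (beside 0%), with 1 unadjusted (2.14%) and 0 by DESeq2 (0.257%). In liver 0 were called (beside 0.0198%), with 2 unadjusted (3.30%) and 1 by DESeq2 (0.440%). In stomach 0 were called (beside 0%), with 6 unadjusted (8.68%) and 0 by DESeq2 (1.41%).

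A difference in the state effect among the 12 tissues was not called for any member by edgeR's quasi-likelihood test over 11 contrasts, beside 0.0693% of all genes. An unadjusted p under 0.05 was found for 8 members (9.96% of all genes), and DESeq2's likelihood ratio test called 3 (4.99%), namely Col11a1, Col9a1 and Col9a2. Opposite directions in 2 tissues, such as those of Col9a1 in hind limb and tail, are therefore given as values and not as a tested difference.

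Of the genes that build and bind collagen fibrils, 14 of 40 tested (51 listed) were called in the mean over the 12 tissues by edgeR's quasi-likelihood test, each of them higher, beside 10.9% of all genes called higher, with a median log2 fold change of 0.48 against 0.02 over all genes. Whether these calls depend on the 5 libraries with a shared collagen profile, or on the metamorphosed libraries of replicate 2, was not tested. Calls over all genes in this comparison fell without either set. Fibril-associated proteins made up the largest part with 6 of 8, namely the cell-adhesive glycoprotein Fn1 (1.21 ± 0.17, SE, adjusted p of 7.39e-06), the small proteoglycans Lum (1.15), Prelp (0.91), Dcn (0.88) and Bgn (0.78), and the collagen-binding Sparc (0.67).

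Procollagen processing had 3 of 6 called, the propeptide proteases Adamts2 (0.94) and Bmp1 (0.60) and the enhancer protein Pcolce (0.75). Of the hydroxylation and glycosylation enzymes 2 of 13 were called, P3h3 (0.57) and Colgalt2 (0.98), and of the folding and secretion genes 2 of 8, the chaperone Fkbp10 (0.64) and the vesicle coat protein Sec23a (0.37). The receptor Ddr2 was higher by 0.93 ± 0.21 (adjusted p of 0.00161). Of the 3 cross-linking enzymes 0 were called, with 1 at an unadjusted p under 0.05 and 1 by DESeq2. In skin 0 of the 40 genes were called by the same test, where 4.89% of all genes were. Its unadjusted p was under 0.05 for 9 (5 higher and 4 lower), beside 4659 of all 20216 genes. DESeq2 called 3 (2 higher and 1 lower), beside 1818 of all 20216 genes. The median log2 fold change of the 40 genes was 0.03, against -0.39 over all genes.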

How the data were processed

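Bulk RNA-seq libraries of 17 tissues were analysed from gene-level counts. The deposited files hold raw counts of read pairs per gene model, which the authors made with featureCounts version 1.6.0 per the file headers, over exons grouped by gene, without strand, on the AmexG_v3.0.0 assembly. The submitters' processing notes also name STAR and DESeq2. Libraries were grouped by the state and tissue in their labels, and 0 files held identical values. Unstranded counting cannot separate overlapping genes on opposite strands.

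All 61 libraries were fitted with edgeR 4.0.16 in R 4.3.3 (TMM scaling, filterByExpr, quasi-likelihood test, 1 coefficient per state and tissue, Benjamini-Hochberg adjustment over all genes, threshold 0.05). Enrichment was fitted on the 34 neotenic libraries in the same way. limma 3.58.1, Python 3.11.15, pandas 2.3.3, numpy 2.4.6, scipy 1.17.1 and matplotlib 3.10.9 were used alongside. Correlations used log2(CPM + 1). Count ratios carry exact intervals for counting error only. Alternatives were DESeq2 1.42.0, its size factors in edgeR, no low-count filter, replicate blocks, a minimum fold, summed models and left-out libraries, and scripts were tested on simulated counts. Fits with a lone library in a group assume that it varies like the other groups. Those that left out a replicate kept the dispersion trend of the full fit. Genes were filtered and the dispersion estimated anew without the libraries holding intestinal genes and without those with a shared collagen profile. The same was done without the smallest library and without the neotenic stomach and tail libraries at odds with their labels.

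Titles number the replicates as batches. Over 12 tissues, the correlation of replicate differences between states ranged from -0.38 to 0.29 (median -0.02), with 3 above 0.1, so the numbers were not taken to pair samples. The labels do not say whether replicates are separate animals, and p-values then measure the spread between these libraries.

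The collagen models and gene lists were chosen with earlier results of these data known. The rule for named models took the 3 with the most counts in each structural class, up to 8 called models per state comparison and direction whose higher state reached 1 CPM in each library (for the mean effect, on average), the most enriched model of each neotenic tissue, Col5a1, Col11a1, Col3a1 and Col6a3, and any match that is not a collagen. This named 25 of the 30 models, and Col14a1, Col20a1, Col27a1, Col21a1 and Col19a1 were named after their values were seen. Symbols of 28 models matched RefSeq gene names.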

Additional observations from a re-analysis of the deposited data

Results flagged for a closer look

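Fore limb and heart had 1 metamorphosed library each and entered no comparison between states. Models at least 4 times above both neotenic libraries of their tissue were picked out there by a rule chosen after seeing the data. In metamorphosed fore limb 1, Col4a6 of basement membranes was at 34.2 CPM (neotenic libraries 7.53 and 7.26 CPM), the short Col11a1 model at 24.3 CPM (3.52 and 4.45 CPM), Col27a1 at 18.3 CPM (1.34 and 1.36 CPM) and the hypertrophic cartilage collagen Col10a1 at 5.40 CPM (1.17 and 1.16 CPM). This library is among the 5 with a shared collagen profile. In metamorphosed heart 1, which is not among them, Col10a1 was at 8.56 CPM (1.02 and 0.69 CPM). Single libraries allow no test of these differences.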

How the results depend on the processing

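Calls in single tissues depended on the processing more than enrichment did. In skin, 4 models were called as reported and 7 by DESeq2, beside 989 and 1818 of 20216 genes. Left out in turn were the 4 metamorphosed libraries that hold intestinal genes and the 5 libraries with a shared collagen profile, the latter chosen after seeing the data. Each of these settings left 1 metamorphosed skin library, and calls in skin were lost for the members and for nearly all other genes alike. Leaving out replicates gave 0 to 7 in skin, 0 to 1 in hind limb, 0 to 6 pairs in the 9 tissues other than skin, hind limb and tail, and 0 to 9 models in the mean effect. In hind limb DESeq2 called 1. In the other 9 tissues (1 pair as reported), DESeq2 called 10, its size factors in edgeR 0, no filter 0, and leaving out the libraries labelled neotenic stomach 2 and tail 2 gave 2. In the mean effect, calls of members and of all genes both became fewer without the 4 and without the 5 libraries. The interaction gave 3 by DESeq2 and 1 (Col9a2) without the stomach and tail libraries, and 15 enriched pairs reached a log2 fold change of at least 4. Interaction calls over all genes rose in both of these settings as well. The share of all gene and tissue pairs at that fold was not computed. The cause of these shifts between settings was not tested, apart from the fewer samples where libraries were left out. The replicate block over all tissues gave 3 models in skin, 0 pairs in the other 9 tissues, 10 models in the mean effect and 53 enriched pairs, and the replicate block within each state gave 4, 2 and 10 for the state comparisons. Some directions turned. Without the 4 and without the 5 libraries, the mean effect of Col9a1 was -0.029 and -0.51 and that of Col23a1 was -0.24 and -0.20, and in skin Col9a2 was at -3.60 and -3.61, Col9a1 at -5.39 and -5.39 and Col27a1 at -4.82 and -4.82, where the remaining metamorphosed library has 0 counts. Leaving out replicates moved the mean effect of Col9a1 between -0.59 and 1.93, Col23a1 between -0.76 and 0.34, Col17a1 between -0.14 and 1.05, Col4a3bp between -0.12 and 0.015, Col4a6 between -0.28 and 0.60, Col8a1 between -0.20 and 1.62 and Col22a1 between -1.59 and 0.13, and in skin Col9a2 between -3.71 and 7.89, Col9a1 between -5.50 and 6.92 and Col27a1 between -4.92 and 4.33. Under DESeq2 size factors the median of all genes moved from -0.39 to -0.25 in skin, from 0.17 to 0.04 in spleen and from -0.00 to -0.19 in eye, the split of all calls in skin from 447 higher and 542 lower to 509 and 295, and Col23a1 in skin (adjusted p of 0.0545) and Col18a1 in spleen (0.0568) were no longer called. Of the values of single models under alternatives, 280 kept their direction and stayed called or stayed uncalled, 69 lost the call, 7 gained it and 25 turned. The 280 include values of models that were not called as reported, such as all 14 of Col3a1, and so do not count kept calls. With 2 libraries a group and 3 counts worth up to 24.2 CPM in metamorphosed skin 1, low models there were not measurable.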
